A study of Mus musculus with 6 samples.

Results

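Genes with a long 5′ untranslated region (5′UTR) in cultured mouse squamous cell carcinoma (SCC) keratinocytes were chosen by the length of the counted 5′UTR, 400 nt or more, and by their RNA-seq reads, at least 20 on the 5′UTR over both RNA-seq libraries, among genes with a counted coding sequence (CDS) and an unjoined name. Of 23698 genes in each count table, 2714 had a CDS and a 5′UTR of 400 nt or more, and 1127 of these also had the reads. They are called long-5′UTR genes here, and were set against 1232 short-5′UTR genes, with a counted 5′UTR of 60 to 150 nt and the same other limits. The study, per its title, dealt with 5′UTR isoforms and translational efficiency in cancer. The cells carried HrasG12V together with a Tgfbr2 fl/fl KO, came from the back skin of P0 mice as primary keratinocytes, and were at passage 10 to 15. Ribosome-protected fragments (footprints) were taken from the 1 library deposited in this series, and RNA from 2 replicate libraries. The study also used further SCC and wild-type footprint libraries from an earlier deposit, which were not analysed here, so every value below belongs to this cell type alone and the footprint values have no replicate.

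The small ribosomal subunit usually loads at the cap and scans the 5′UTR until it meets a start codon, so an AUG in the 5′UTR can open an upstream open reading frame (uORF). Ribosomes that translate a uORF leave footprints on the 5′UTR, and many then do not start again at the CDS. Ribosome profiling sequences the stretch of mRNA that a ribosome shields, and footprints per RNA-seq read on the CDS give its translational efficiency (TE).

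Upstream AUGs are shown for the 8 genes with most footprints on the 5′UTR for each CDS footprint, each with a candidate uORF ahead of its CDS. The counts give only a total for each region, so no footprint can be placed on any of these AUGs. An upstream AUG was also common in long-5′UTR genes at large, found in 434 of 469 (92.5%). These ratios are the highest among genes with at least 100 CDS footprints and 10 on the 5′UTR. Some genes with fewer CDS footprints, reported below, had higher ratios. The annotation was GENCODE M21 on GRCm38, with the transcript closest in 5′UTR length to the counted one. Capitals mark the upstream ATG in a window of 30 bases, written 5′ to 3′ on the strand of the gene. Where an ATG had a purine 3 bases before it and a G after it (a strong context) it was taken, otherwise the first ATG.
Azin1: tccccgcagcctATGgcccaggccgccttg
Alkbh5: gccctccgcggcATGaggcgctgccggcgc
Itpripl2: gtgcgggatcagATGcagccaccgccccgg
Tor1aip2: ggggctccgacaATGgcttagccgccgacc
Efnb1: cggctgcggaggATGggcgcctgagtggct
Atf4: cttgcggccaccATGgcgtattagaggcag
Atf4, overlapping the CDS: ccggcctaagccATGgcgctcttcacgaaa
Zdhhc6: cccggaaatgcgATGgctgtggagcgggca
Slc6a8: agtgggcttccgATGccacccgcgacgcgc
The Azin1 window lies at chr15:38519001-38519030 (minus strand), 502 nt before the start codon, and opens a frame of 17 codons, the first of 6 upstream AUGs. Alkbh5 (chr11:60538147-60538176, plus strand) has 4 upstream AUGs, none in a strong context, and the first opens 27 codons. In Itpripl2 (chr7:118491903-118491932, minus strand) the first of 2 opens 139 codons and ends within the 5′UTR. Tor1aip2 (chr1:156035431-156035460, plus strand) and Efnb1 (chrX:99136770-99136799, plus strand) have frames of 2 and 3 codons in a strong context. Atf4 has both of the layouts that its known control rests on. A frame of 3 codons begins 196 nt before the start codon (chr15:80255570-80255599, plus strand), and a frame of 59 codons begins 97 nt before it and runs past the start codon in another frame. The window of that longer frame spans an intron (chr15:80255669-80256219, plus strand). In Zdhhc6 (chr19:55315813-55315842, minus strand) the third of 7 upstream AUGs has a strong context and opens 30 codons, and in Slc6a8 (chrX:73673379-73673408, plus strand) the first of 2 opens 6 codons.

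The footprint library held 3549555 counts on exons, and the RNA-seq libraries 10707930 and 14003713. The CDS took 90.1% of exon footprints, against 67.3% and 68.7% of RNA-seq counts, and the 5′UTR took 4.50% of footprints, against 3.48% and 4.03%. The long-5′UTR genes held 19.9% of all 5′UTR footprints (95% exact Clopper-Pearson interval 19.7 to 20.1, here and below for counting error only) but 6.79% of CDS footprints. In RNA-seq they held 21.2% and 20.6% of 5′UTR counts, and 9.72% and 9.56% of CDS counts. Across 1052 of these genes with at least 100 exon counts in both RNA-seq libraries, the log2 ratio of replicate 2 to replicate 1 in exon RPKM (reads per kb of exon, scaled to the exon counts of the library) had an SD of 0.18, against 0.091 from counting alone. The RNA-seq density ratio of 5′UTR to CDS varied more, with an SD of 0.47 over 1011 long-5′UTR genes and a median shift of 0.17, and was higher in replicate 2 in 658 of them (65.1%). The labels do not say whether the replicates came from separate cultures, so that spread may be technical.

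Marker genes fitted the labelled cell type. All 9 basal keratinocyte markers were above 1 RPKM in RNA-seq, with summed levels of 16147 and 18628 RPKM in replicates 1 and 2, led by Krt5 at 7965 and 9483 RPKM. The 4 differentiation markers listed of 5 summed to 118 and 120 RPKM, nearly all from Ivl (104 in both). The 6 fibroblast markers summed to 11.3 and 18.2 RPKM, led by Col3a1 at 3.89 and 5.49, and the 4 melanocyte markers to 5.30 and 5.68, led by Pmel at 5.03 and 5.19. The 3 immune markers summed to 1.03 and 3.42 RPKM, led by Cd74, and the 3 endothelial markers to 0.505 and 0.591, led by Kdr. Cd3e had no count in either library, and a count of 0 allows up to 3 counts. In these bulk libraries fewer cells of a type and less RNA per cell cannot be told apart. The part of RNA from other cells in the values below was not tested.

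The counted 5′UTR matched a single annotated transcript in some genes only. Among long-5′UTR genes its length ran from 400 to 2534 nt, with a median of 560. GENCODE M21 held 1088 of the 1127 by name, and in 906 (83.3%) an annotated transcript had a 5′UTR of 400 nt or more. In 533 the counted length lay within 30 nt of that of an annotated transcript, and in 510 (46.9%) it exceeded the longest annotated 5′UTR. In 355 of 1087 (32.7%) every full-length coding transcript had 400 nt or more, so in the other genes part of the mRNA may lack the long 5′UTR. Counts held fractions. After multiplication by the read length in nt, 97.6% and 97.7% of RNA-seq exon values above 0 and below 50 lay within 0.01 of a whole number, so an RNA-seq read across the start codon was shared between 5′UTR and CDS, and a footprint over the start codon can add to the 5′UTR. The 5′UTR of 34 of 1087 genes (3.13%) overlapped an exon of another gene on the same strand, and that of 199 (18.3%) an exon on the opposite strand. Whether the counting used strand is not given in the sources used here, so reads of the antisense partner cannot be told apart.

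Of the 1127 long-5′UTR genes, 1011 had at least 10 CDS footprints, 116 had fewer and 20 had none. Among the 1011, the median was 17.1 footprints on the 5′UTR for every 100 on the CDS (quartiles 7.68 and 34.1), against 4.01 in 1220 short-5′UTR genes (quartiles 1.87 and 8.27), which is 4.26-fold more. With no RNA-seq minimum the short-5′UTR median was lower, at 2.59 in 2805 genes. The counted 5′UTR was longer too, with medians of 553 and 108 nt. The same quantity in RNA-seq was 11.5 and 12.9 reads per 100 CDS reads in replicates 1 and 2 for long-5′UTR genes, and 5.47 and 6.60 for short-5′UTR genes. The RNA-seq reads on the 5′UTR chose the genes, and a minimum of 20 asks for a higher density of reads on a short 5′UTR than on a long one, so nothing is read from the RNA-seq values. Only 7 of the 1011 had no footprint on the 5′UTR.

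Per nucleotide, the 5′UTR held fewer footprints than the CDS in most long-5′UTR genes. The median log2 ratio of 5′UTR to CDS footprint density (0.5 footprints added to each count) was -0.92 in long-5′UTR and -1.34 in short-5′UTR genes, a difference of 0.42 or 1.34-fold. The difference went with RNA level. Within 5 bins of mean exon RPKM it averaged 0.036, ranging from -0.15 to 0.29, and among genes with at least 100 CDS footprints it was 0.068. The part of RNA level in it was not tested. In RNA-seq the order was opposite, with median log2 density ratios of -1.64 and -1.45 in replicates 1 and 2 for long-5′UTR genes and -0.77 and -0.56 for short-5′UTR genes. The RNA-seq reads on the 5′UTR chose the genes, so these are given as a description. Set against RNA-seq in the same gene, the 5′UTR over CDS ratio of footprints was above that of RNA by a median log2 of 0.64 and 0.47 in long-5′UTR genes (replicates 1 and 2), and differed by -0.42 and -0.65 in short-5′UTR genes. These differences hold the RNA-seq reads that chose the genes, so the contrast between long-5′UTR and short-5′UTR genes in them is a description only.

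**Figure D1:**
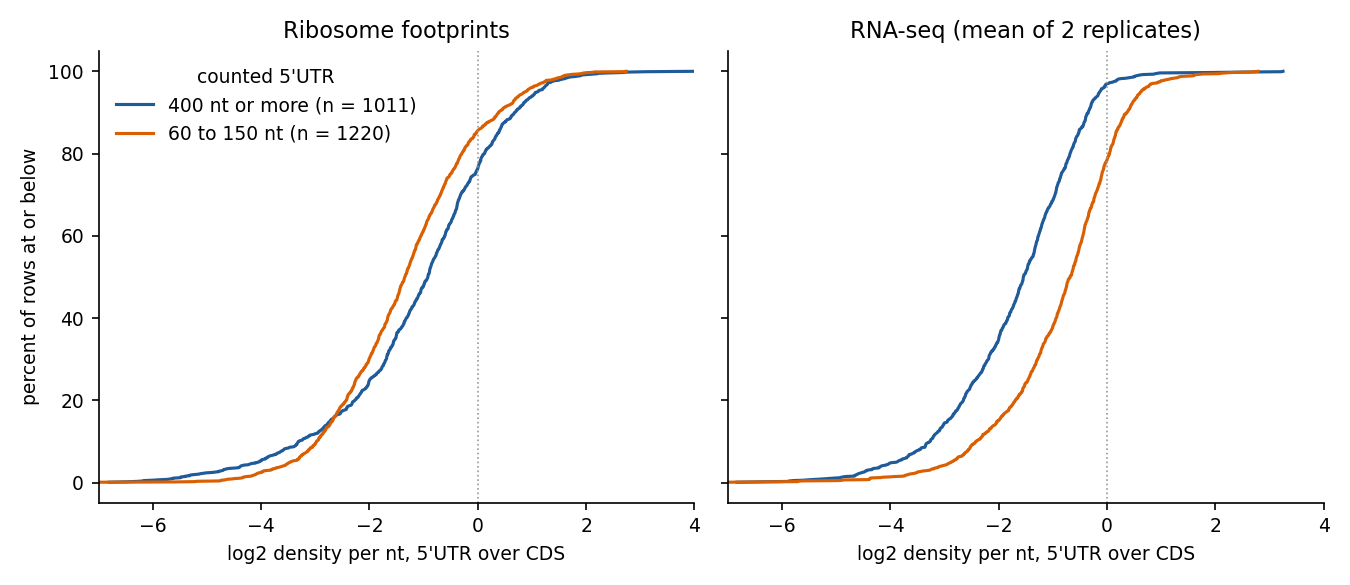
Cumulative percent of genes (y axis) by the log2 ratio of 5′UTR to CDS density per nt (x axis), for footprints and for RNA-seq (mean of both replicates), in 1011 long-5′UTR genes (blue) and 1220 short-5′UTR genes (orange). The blue line lies to the right for footprints (medians -0.92 and -1.34) and to the left for RNA-seq.

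The 5′UTR was more densely covered by footprints than the CDS in 227 of 1011 long-5′UTR genes (22.5%), against 18.8% of all 4447 genes with a 5′UTR under the same limits and 13.8% of short-5′UTR genes. With at least 100 CDS footprints the share was 12.6%, against 11.4% of all genes and 8.58% of short-5′UTR genes, which is close to the background. The exact interval of the 5′UTR share of footprints lay above the 5′UTR share of the length in 88 long-5′UTR genes (8.70%, against 6.48% of all 4447), and below it in 541 (53.5%, against 56.3%). Where every full-length annotated transcript had a long 5′UTR, 33.8% of 311 genes were denser on the 5′UTR, and the difference in log2 density from short-5′UTR genes was 0.87. That restriction was chosen after seeing the data and was put on the long-5′UTR genes alone, so the sets differ in it.

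CDS translational efficiency was lower in genes with longer 5′UTRs. TE was the CDS footprint RPKM over the mean exon RPKM of both RNA-seq libraries, on a log2 scale relative to the median of 9863 genes with RNA-seq above 1 RPKM in both libraries and a base mean above 25. Among 1096 long-5′UTR genes with a value the median was -0.49 (quartiles -1.36 and 0.37), and among 1230 short-5′UTR genes it was 0.34 (quartiles -0.37 and 1.12). The difference of -0.84, a 1.79-fold lower TE, was -0.84 and -0.80 with RNA-seq replicate 1 or 2 alone. Both values share the footprint library, so they say nothing of the spread of TE between footprint libraries. A log2 TE below -1 was found in 357 of the 1096 (32.6%, against 21.1% of all genes), and one above 1 in 145 (13.2%, against 20.8%).

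Long-5′UTR genes also had less RNA and a longer CDS, with medians of 15.5 RPKM and 1674 nt, against 36.2 RPKM and 1019 nt. Within 5 bins of mean exon RPKM the TE difference averaged -0.67, and was negative in each, from -0.97 in the second bin to -0.35 in the highest. Within 5 bins of CDS length it averaged -0.42. It lay between -0.59 and -0.48 in the 4 bins above 630 nt, but was 0.074 for a CDS of at most 630 nt, where 112 long-5′UTR genes had a median of 1.12 and 354 short-5′UTR genes 1.05. When 100 counts were required in each library, which left 575 long-5′UTR genes, it was -0.49.

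**Figure D2:**
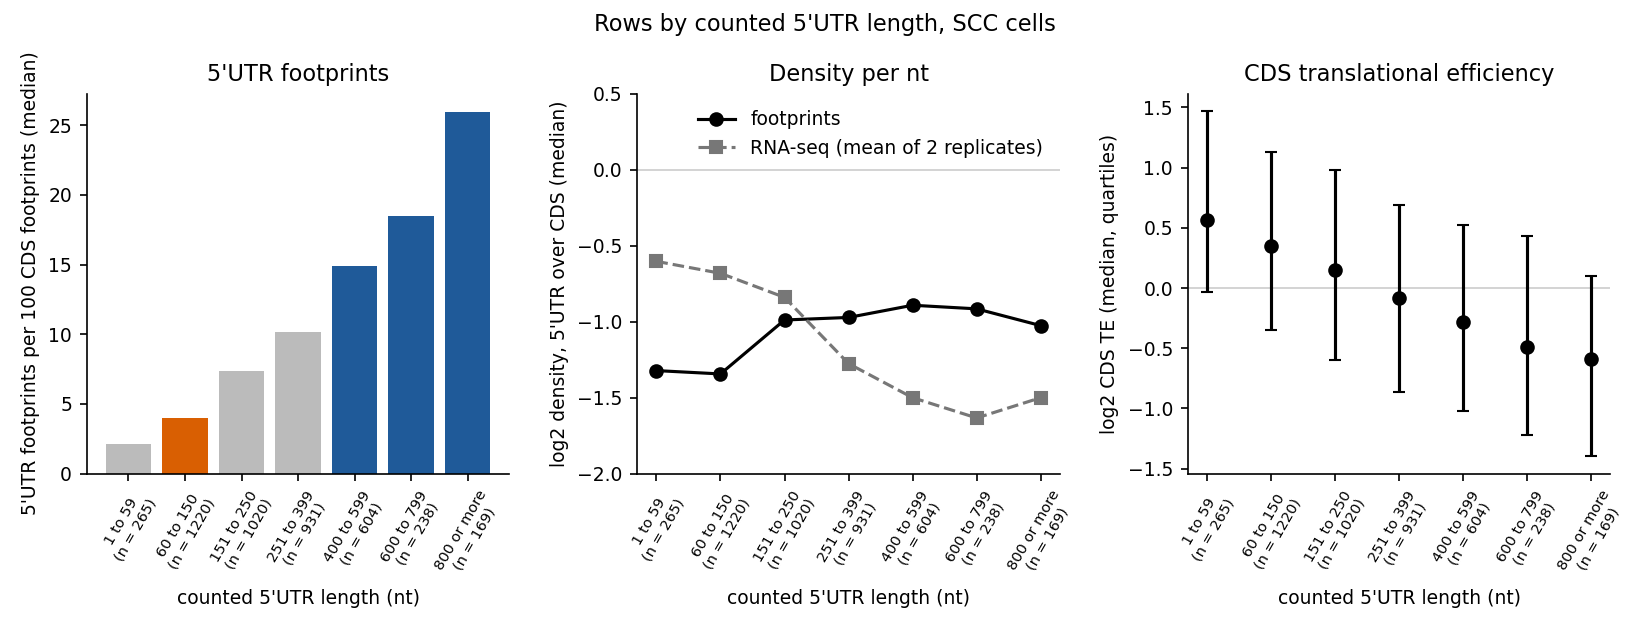
Genes with at least 10 CDS footprints by counted 5′UTR length (x axis, nt, with the number of genes). Left, median 5′UTR footprints per 100 CDS footprints; middle, median log2 ratio of 5′UTR to CDS density per nt for footprints and RNA-seq; right, median log2 CDS TE with quartiles. The left panel runs from 2.11 to 26.0, the footprint density lies between -1.03 and -0.89 in the 5 longest classes, and TE runs from 0.57 to -0.59.

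Across 7 length classes the median of 5′UTR footprints per 100 CDS footprints was higher at each step, from 2.11 for 5′UTRs of 1 to 59 nt to 14.9, 18.5 and 26.0 in the 3 classes of long-5′UTR genes (from 400 nt, from 600 nt and the longest). The density ratio showed no such order in the 5 longest classes, with medians between -1.03 and -0.89, and the share of genes denser on the 5′UTR was 20.6% to 23.7% there. TE was lower at every step, from 0.57 to -0.28, -0.49 and -0.59 in the 3 classes of long-5′UTR genes, whose quartiles overlapped widely. All classes hold only genes with at least 10 CDS footprints, a limit that selects on a part of TE. RNA level and CDS length moved with the classes as well, from 84.0 RPKM and 672 nt in the shortest to 15.4 RPKM and 1764 nt in the longest.

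Within the long-5′UTR genes, more footprints on the 5′UTR per CDS footprint went with a lower CDS TE. Spearman's rho was -0.231 across 1007 genes, which share 1 footprint library and are not independent replicates, and both measures hold the CDS footprints. In 4 groups of like size in order of that ratio, the median log2 TE was 0.015, -0.34, -0.43 and -0.75. It was -1.18 in the 227 genes that were denser on the 5′UTR, and -0.14 in 780 that were not. The relation was weaker in deeply covered genes, at -0.082 with at least 100 CDS footprints (492 genes) and -0.131 where each library had 100 counts or more (574 genes), limits that also remove genes with few CDS footprints. In short-5′UTR genes rho was 0.101, and over all 4441 genes -0.160.

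**Figure D3:**
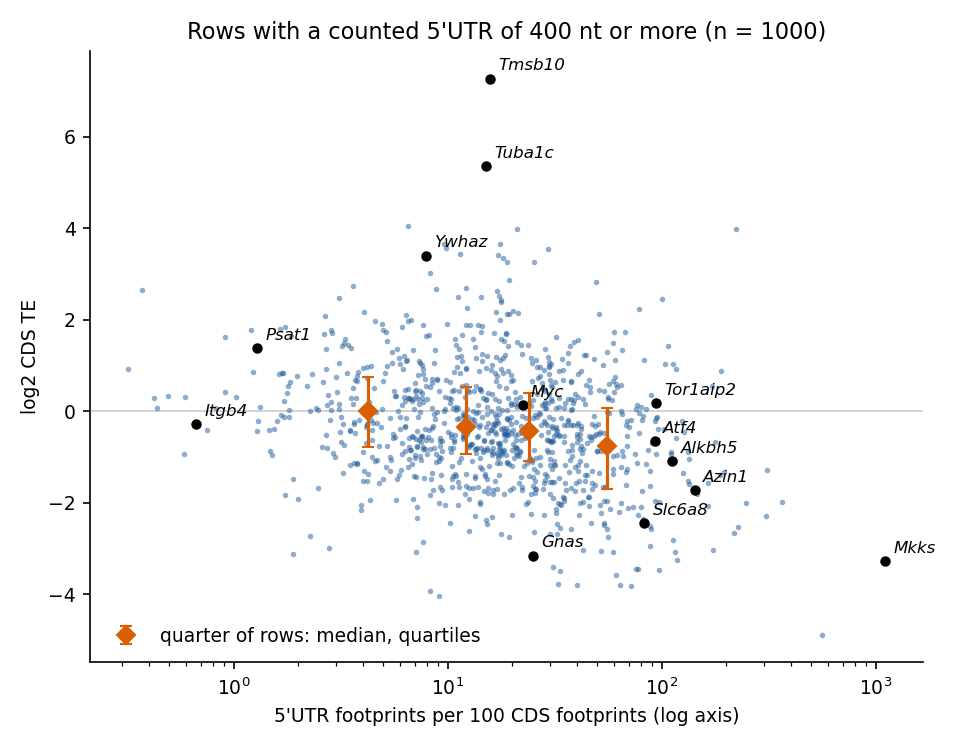
Each point is a long-5′UTR gene with footprints on the 5′UTR, by 5′UTR footprints per 100 CDS footprints (x axis, log axis) and log2 CDS TE (y axis). Orange diamonds give the median and quartiles of TE in 4 groups of like size in order of ratio, from 0.015 to -0.75, and black points are labelled by gene.

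A second measure, in which the 5′UTR and CDS values came from separate regions and RNA-seq replicates, had the other sign. Footprints per RNA-seq read on the 5′UTR (replicate 1) and on the CDS (replicate 2) had a rho of 0.328 across the same 1007 genes, and 0.338 with the replicates exchanged. In 4 groups of like size from the lowest to the highest 5′UTR value, the median CDS value relative to all of these genes was -0.51, -0.18, 0.27 and 0.38. The rho was 0.372 in short-5′UTR and 0.306 in all genes. The points share the footprint library. A footprint over the start codon may add to both regions, and its part in this rho was not tested. The 5′UTR value holds the RNA-seq reads that chose the genes, so these values and their sign are a description only.

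Upstream AUGs were counted in 469 long-5′UTR genes and 859 short-5′UTR genes with an annotated 5′UTR within 30 nt of the counted length and at least 10 CDS footprints. In the long-5′UTR genes the median was 3, with at least 1 in 434 genes (92.5%), and 215 (45.8%) had at least 1 in a strong context. In 104 (22.2%) a uORF overlapped the start codon out of frame. Of the short-5′UTR genes 254 (29.6%) had an upstream AUG. The GC content was similar, with medians of 60.6% and 63.9%.

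Without an upstream AUG, long-5′UTR and short-5′UTR genes were close in footprint density ratio and TE but not in footprints per CDS footprint. The 35 long-5′UTR genes with none had a median log2 density ratio of footprints of -1.54 and a TE of 0.30, and the 605 short-5′UTR genes with none had -1.53 and 0.40. Their medians of 5′UTR footprints per 100 CDS footprints were 13.0 and 3.25. With 1 to 2, 3 to 5, 6 to 9 and 10 or more upstream AUGs the median TE of long-5′UTR genes was -0.29, -0.40, -0.62 and -1.36, and the share denser on the 5′UTR was 19.3%, 32.7%, 35.2% and 41.7%, against 5.71% with none. In short-5′UTR genes the share was 6.28% with none, 31.9% with 1 to 2 and 61.1% in 18 genes with 3 to 5, so the order was not particular to long 5′UTRs, and TE was 0.20 with 1 to 2 and -1.05 with 3 to 5. Genes with an overlapping uORF had a median TE of -0.74, against -0.31 in the 330 whose upstream AUGs included none. The long-5′UTR genes with no upstream AUG also had more RNA, 25.1 RPKM against 12.6 RPKM with 10 or more. Their median 5′UTR was shorter, 474 against 925 nt, and its GC content higher, 66.0% against 49.9%. The part of RNA level, length and GC content was not tested.

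Spearman's rho of the number of upstream AUGs in long-5′UTR genes was 0.205 with the footprint density ratio, against 0.312 in short-5′UTR genes, and -0.220 with TE. With at least 100 CDS footprints (218 genes) these were 0.099 and -0.113, and neither order held throughout. The share denser on the 5′UTR was then 3.57% with no upstream AUG and 8.97%, 27.0%, 25% and 11.1% in the classes with more. The 9 such genes with 10 or more upstream AUGs had the lowest median density ratio, -2.72 against -1.64 with none, and a median TE of 1.29. GC content had a rho of -0.502 with the density ratio of RNA-seq reads, -0.034 with that of footprints and -0.046 with TE. The first of these rests on the RNA-seq reads that chose the genes. In short-5′UTR genes the rho of GC content with the footprint density ratio was -0.221.

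**Figure D4:**
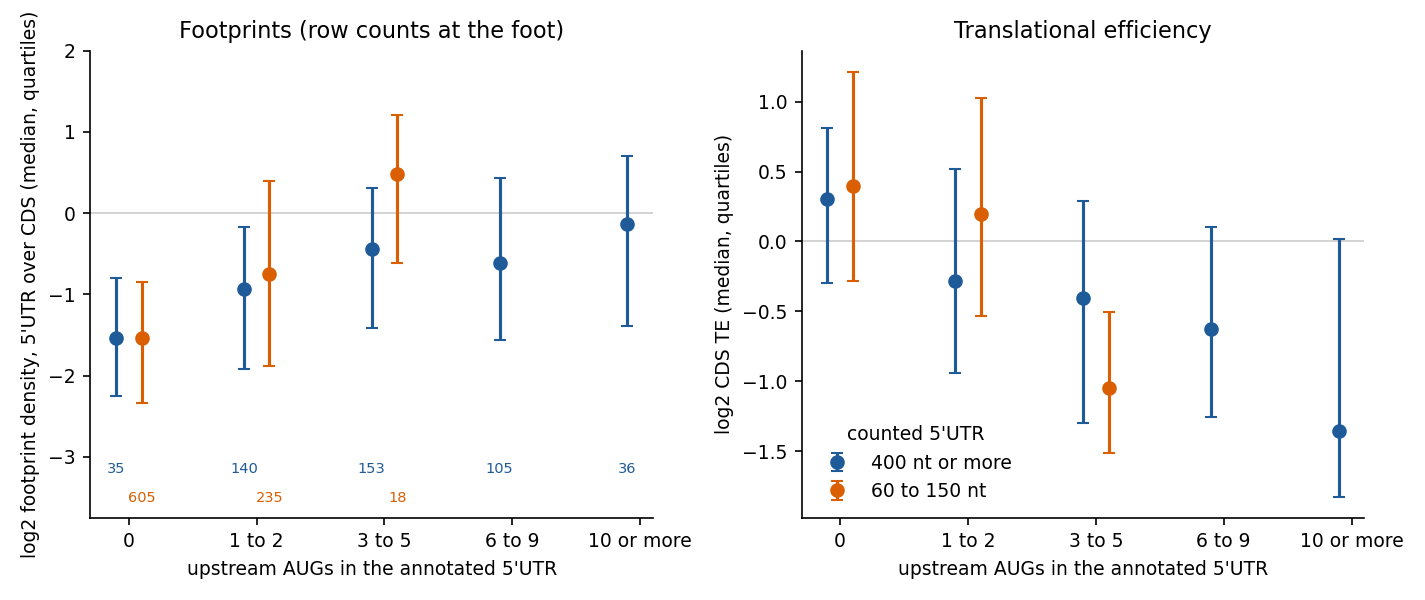
Genes by the number of upstream AUGs in the annotated 5′UTR (x axis), long-5′UTR in blue and short-5′UTR in orange, with medians (points) and quartiles (bars) of the log2 ratio of 5′UTR to CDS footprint density (left, number of genes at the foot) and of log2 CDS TE (right). Both sets start near -1.5 and above 0 with no upstream AUG, and classes with under 10 genes are left out.

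Of the 409 long-5′UTR genes with at least 100 CDS footprints and 10 on the 5′UTR, Azin1 had the highest ratio. Azin1 is the antizyme inhibitor, which frees ornithine decarboxylase for polyamine synthesis, and its 5′UTR is known for a conserved uORF. Only AUG starts were sought here, so the AUG frame shown above need not be that uORF. It had 289 footprints on a 5′UTR of 750 nt and 202 on a CDS of 1344 nt, so that 58.8% of them (interval 54.4 to 63.2) fell on the 5′UTR, which made up 35.8% of the length. Of the RNA-seq reads 24.1% and 27.1% fell there. Its log2 TE was -1.83 and -1.61 with RNA-seq replicates 1 and 2. Azin1 was the only member among the 6 polyamine genes listed of the 8 chosen.

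Alkbh5, a demethylase of N6-methyladenosine in RNA, was next with 152 footprints on the 5′UTR and 136 on the CDS, and a TE of -1.05 and -1.13. Its counted 5′UTR of 740 nt was longer than the annotated 445 nt. The ratio was also above 80 footprints per 100 in Itpripl2 (158 and 164), in Tor1aip2 (233 and 249), an activator of torsins in the endoplasmic reticulum, and in Efnb1 (167 and 179), a ligand of Eph receptors. Zdhhc6, a palmitoyltransferase, had 96.0 and 111, and Slc6a8, the creatine transporter, 92.0 and 111. These high shares did not always come with a low TE. Tor1aip2 had a log2 TE of 0.13 and 0.23 with replicates 1 and 2, and Efnb1 -0.10 and -0.30, while Slc6a8 had -2.42 and -2.48. RNA-seq coverage of the 5′UTR differed between them too. Tor1aip2 had 50.4% and 49.8% of its reads on the 5′UTR, but Slc6a8 only 4.26 and 23.9 reads there, 0.198% and 0.804% of the total, and an annotated coding transcript with a 5′UTR of 4 nt.

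The lowest ratios were sought among the same 409 genes, where the minimum of 10 footprints on the 5′UTR means that a low ratio needs many CDS footprints. Itgb4, the integrin subunit of hemidesmosomes and a basal keratinocyte marker, had 33.3 footprints on the 5′UTR and 4978 on the CDS, a share of 0.664% (interval 0.454 to 0.924) over 7.51% of the length. Its RNA-seq share was as low, at 0.618% and 0.758%. Psat1 of serine synthesis had 46.8 and 3642 footprints, Tmbim6, a protein of the endoplasmic reticulum that limits cell death, 22.3 and 1357, the ubiquitin-activating enzyme Uba1 38.4 and 2145, and the hexokinase Hk1 10.3 and 567. In each of these the 5′UTR had at most 3.65% of RNA-seq reads in either replicate, and each had an annotated coding transcript with a 5′UTR under 400 nt.

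Among genes known for uORF control under stress, 4 of 11 were long-5′UTR genes, with a median log2 TE of -0.40, against -0.49 over all long-5′UTR genes and -0.65 over the list whatever the 5′UTR. Ibtk lay near 0, at -0.13 and 0.14. Atf4, the transcription factor of the integrated stress response, had the most 5′UTR footprints of all long-5′UTR genes, 645 against 694 on the CDS. That is a share of 48.2% (interval 45.4 to 50.8), against 36.2% of the length and 13.9% and 20.1% of RNA-seq reads, and the TE was -0.63 and -0.68. Slc35a4 stood further apart. Its upstream frame is known to encode a small mitochondrial protein, and 141 footprints lay on the 5′UTR and 5.17 on the counted CDS, a share of 96.5% (interval 92.2 to 98.9), while RNA-seq gave 52.5% and 51.9%. Only 384 nt of its annotated 1281 nt of CDS were counted. Ppp1r15b, a subunit of the phosphatase that acts on eIF2α, had 67.0 and 199 footprints, or 25.2% on the 5′UTR (interval 20.1 to 30.9). Its RNA-seq shares of 4.04% and 7.23% rest on 23.3 and 57.6 reads, and its annotated 5′UTR had a GC content of 68.0%. Ibtk, an inhibitor of Bruton's tyrosine kinase, had 11.4 and 154 footprints and a share of 6.89% (interval 3.37 to 11.6), against 5.44% and 3.27% in RNA-seq.

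Of 23 growth regulators with long or structured 5′UTRs, 10 were long-5′UTR genes. None of the 9 with at least 10 CDS footprints was denser in footprints on the 5′UTR, against 22.5% of long-5′UTR genes and 18.8% of all genes, and the median TE was -0.11, against -0.49 over all long-5′UTR genes and 0.13 over the list whatever the 5′UTR. The proliferation factor Myc had 453 footprints on the CDS and 22.4 on the 5′UTR for every 100 of them, a share of 18.3% whose interval (15.1 to 21.7) held both RNA-seq shares, 15.4% and 18.2%. So did that of the Cdk inhibitor Cdkn1b (40.6 and 100 footprints, interval 21.7 to 37.3), at 25.7% and 27.2%. The survival factor Bcl2l1, with 69.6 and 191 footprints, had a share of 26.7% (interval 21.5 to 32.6), against 21% and 21.7% in RNA-seq. Tgfb1, the ligand of the receptor deleted in these cells, and the angiogenic factor Vegfa had lower shares in footprints than in RNA-seq, 13.7% against 25.8% and 30.1% for Tgfb1 and 17.2% against 27.5% and 25.6% for Vegfa. In Hif1a, the hypoxia factor, 2.63% of footprints but only 0.176% and 0.496% of RNA-seq reads lay on the 5′UTR. These were 12.9 and 43.6 reads, on an annotated 5′UTR with a GC content of 74.9%, whose part in the contrast was not tested. The growth factor receptor Igf1r had 31.8 footprints on a counted 5′UTR of 582 nt and 402 on the CDS. Its annotated 5′UTR was only 32 nt, and the counted one held 9.01 and 17.8 RNA-seq reads. The kinase Rock1 had 15.0 and 309, and the apoptosis inhibitor Birc2 7.12 and 32.0. Bcl2 had 17.5 and 3.45 footprints, too few to set it against the others.

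**Figure D5:**
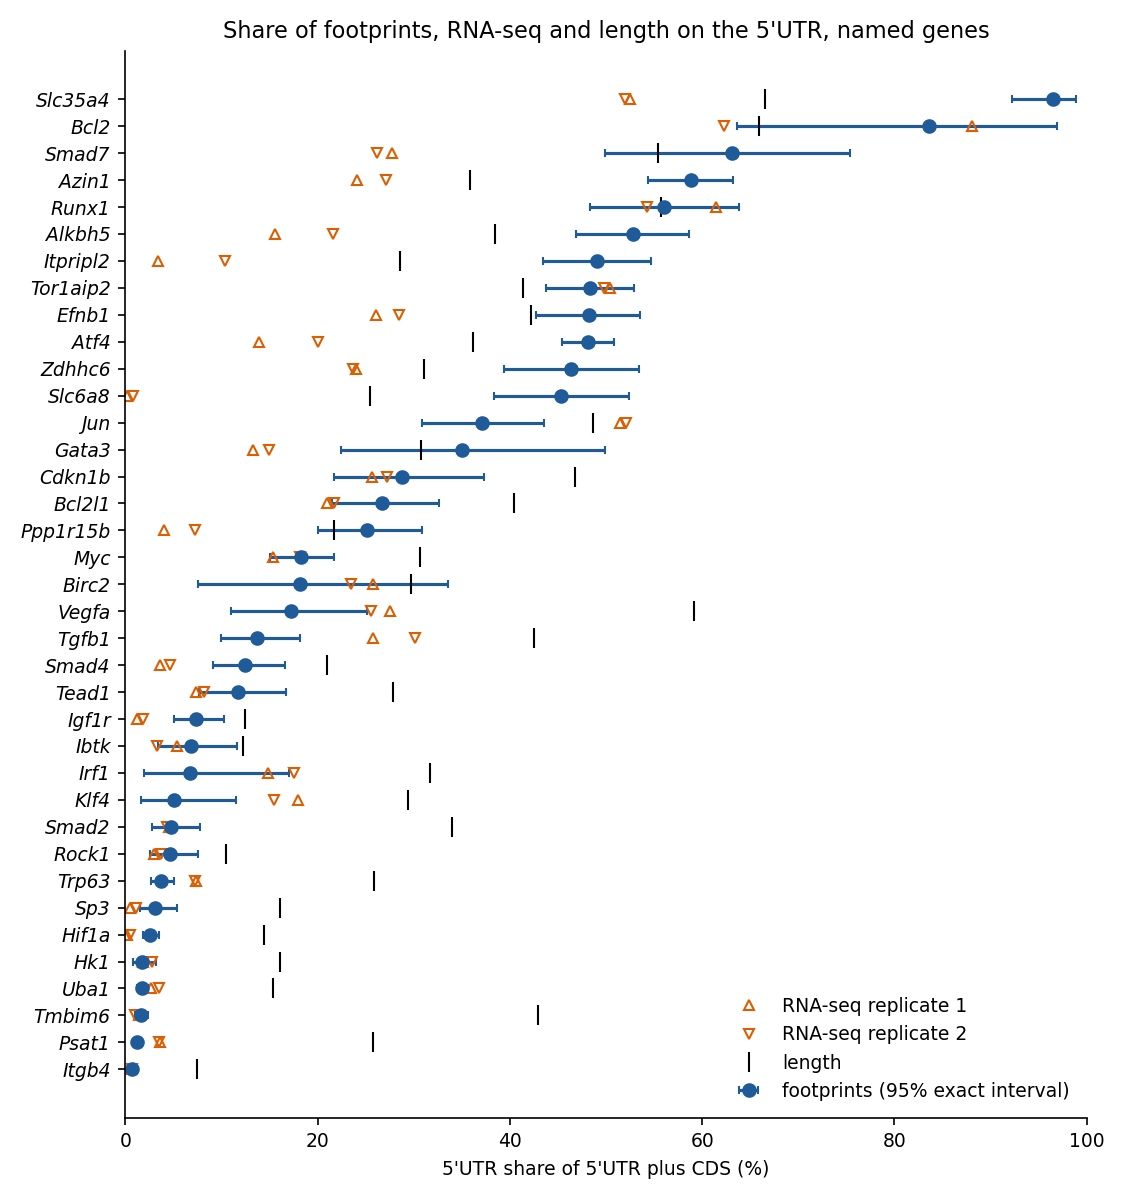
Share of 5′UTR plus CDS that lies on the 5′UTR (x axis, percent) in named long-5′UTR genes, for footprints (blue, with the 95% exact interval), RNA-seq replicates 1 and 2 (orange triangles) and length (black bars). Footprints run from 0.664% in Itgb4 to 96.5% in Slc35a4, and the replicates of RNA-seq lie close together in most genes. Slc35a4 and Bcl2 had under 10 CDS footprints.

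Transcription factors gave 11 long-5′UTR genes of 34, with 3 denser in footprints on the 5′UTR, a share close to the 22.5% of long-5′UTR genes and 18.8% of all genes. Their median TE was 0.44, against -0.49 over all long-5′UTR genes and 0.40 over the list whatever the 5′UTR. Runx1, with a counted 5′UTR of 1775 nt, had 94.6 footprints on it and 74.2 on the CDS, and its share of 56.0% (interval 48.4 to 63.8) was close to the share of the length (55.7%) and lay between the RNA-seq shares of 61.4% and 54.3%. Smad7, an inhibitor of TGF-beta signalling, had 37.7 and 22.0 footprints, a share of 63.2% (interval 49.9 to 75.4) against 27.8% and 26.2% in RNA-seq. Jun had 87.2 and 148 footprints and a share of 37.1% (interval 30.8 to 43.5), below its RNA-seq shares of 51.4% and 52.1%, and no upstream AUG in its annotated 5′UTR. The RNA level of Jun differed between the replicates, 17.0 and 24.3 RPKM, and its TE was 0.95 and 0.43 accordingly.

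In each of the remaining factors the CDS held more footprints than the 5′UTR. Trp63, which sets the identity of basal keratinocytes, had 38.8 on the 5′UTR and 1011 on the CDS, a share of 3.70% (interval 2.65 to 5.04) below its 7.35% and 7.22% in RNA-seq. Klf4 had 5.0 and 93.4, and a TE of -1.31 with either replicate. The TGF-beta mediators Smad2 and Smad4 had 15.6 and 39.8 on the 5′UTR and 312 and 281 on the CDS, and their TE stood apart, at 1.75 and 1.82 for Smad2 and -0.31 and -0.30 for Smad4. Tead1 (25.1 and 190), Gata3 (17.8 and 32.9), Sp3 (11 and 348) and Irf1 (3.85 and 53.0) completed the list. The counted 5′UTR of Sp3, 442 nt, was longer than the annotated 190 nt. In the Ras-Erk pathway 2 of 15 genes were long-5′UTR genes. Dusp6, the phosphatase that inactivates Erk, had 94.4 and 355 footprints and a TE of 0.02 and -0.09. No cytosolic ribosomal protein gene of 79 was a long-5′UTR gene, and 30 had a counted 5′UTR of 60 to 150 nt.

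The highest TE among 492 long-5′UTR genes with at least 100 CDS footprints was found in genes with a short counted CDS. Tmsb10, an actin-binding thymosin, had 2196 footprints on 132 nt of CDS and 23.9 and 23.8 RPKM in RNA-seq, a log2 TE of 7.27 and 7.28. The tubulin Tuba1c followed at 5.30 and 5.42, but only 97 nt of its annotated 1347 nt of CDS were counted, and for the histone chaperone Set (3.99 over both replicates) it was 252 of 940 nt. Whether reads that fit several gene copies were counted is not given in the sources used here. Tm4sf1, a membrane protein, with its whole CDS of 606 nt counted, reached 3.94 and 4.17, and the mitochondrial Higd1a 3.74 and 3.57. In these 5 genes the 5′UTR held 6.11% to 17.3% of footprints.

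The lowest TE among the same 492 genes was that of Gnas, the alpha subunit of the stimulatory G protein, at -3.15 with either replicate. Of its annotated CDS, 3346 of 4588 nt were counted. Only 822 of its 13234 exon reads in RNA-seq replicate 1, and 1102 of 17260 in replicate 2, lay on the counted CDS. TE here is over exon reads, so the value and rank of Gnas belong to that base. The zinc-finger gene Zkscan17 had -2.66 and -2.72, the RING-finger gene Rnf10 -2.57 with either, Pcnxl3 -2.35 and -2.58, and Slc6a8, described above, was the fifth. All 5 had a footprint share on the 5′UTR above that of either RNA-seq replicate, though a choice by few CDS footprints for the RNA also raises that share. In Rnf10 the contrast was 27.3% (interval 21.6 to 33.3) against 0.977% and 2.38%. The RNA-seq shares of Rnf10 rest on 30.2 and 96.1 reads, and its annotated 5′UTR had a GC content of 72.4%. GC content went with a lower RNA-seq density ratio among long-5′UTR genes, as given above, and its part in these contrasts was not tested.

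After Atf4, the most footprints on the 5′UTR were in genes with several times as many on the CDS. Ly6e, a membrane-anchored surface protein, had 398 on the 5′UTR and 3655 on the CDS, the adaptor Ywhaz 385 and 4837, Tmsb10 345 and 2196, and the translation factor Eif5a 313 and 3812. Their shares were 7.37% to 13.6%, over 50.1% to 80.3% of the length. The longest counted 5′UTRs were those of the chromatin reader Zmynd8 (2534 nt, 2.49 footprints on the 5′UTR and 333 on the CDS) and the phosphatase Ptp4a3 (2196 nt, 14.0 and 8.66). Both had few footprints on the 5′UTR for its length. In Zmynd8 that 5′UTR also held only 1.97% and 2.17% of RNA-seq reads, over 39.5% of the length. An annotated coding transcript of Zmynd8 has a 5′UTR of 34 nt. In Ptp4a3 the 5′UTR held 58.4% and 48.9% of RNA-seq reads.

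The 5′UTR had more footprints in all than the CDS in 76 of the 1127 long-5′UTR genes and in 6 of the 1232 short-5′UTR genes, and 28 of the 76 had at least 30 on the 5′UTR. With at least 10 CDS footprints it was 40 of 1011 long-5′UTR genes and 63 of all 4447 genes. These totals also hold the counted lengths, so they need not mean a denser 5′UTR. In Hnrnpf only 26 of the annotated 1245 nt of CDS were counted, and the log2 density ratio of 5′UTR to CDS was -4.06. The highest ratio among the 40 genes was that of Mkks, named after its values were seen. Mkks encodes a chaperonin-like protein of Bardet-Biedl syndrome, and its 5′UTR of 996 nt, with 18 annotated upstream AUGs, carried 121 footprints, against 10.9 on the CDS. The share was 91.7% (interval 85.6 to 95.8), over 72.2% and 69.5% of RNA-seq reads and 39.6% of the length, and the TE was -3.36 and -3.17. Exons of 2 other genes on the same strand overlap its 5′UTR.

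Near the length limit, Aebp2, Stx11 and Traf6 at 400 nt had 0.829, 22.8 and 30.2 footprints on the 5′UTR per 100 on the CDS, and Actr3, Brpf1 and Etv6, 1 nt shorter, had 3.19, 7.04 and 6.13. Near the limit of 20 reads, Axin1, Rc3h1 and Clip4 just inside it had 10.4, 20.7 and 16.1, and Rabgap1l, Cdc42ep3 and Abhd13 just outside it 3.11, 16.7 and 7.29.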

How the data were processed

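Per the labels and the methods of the study, the authors used TrimGalore for trimming and STAR 2.6.1 for alignment to GRCm38, after setting aside ribosomal, mitochondrial and tRNA footprints with Bowtie2 2.4.1 (versions from the submitters' processing notes), and counted reads on exons, CDS and UTRs with Plastid. The deposited tables hold estimated counts, which need not be whole, and RPKM. The release of the annotation used for counting and the strandedness are not given in the sources used here. The authors' RPKM rest on library totals larger than the exon counts, so RPKM was recomputed on summed exon counts. The samples were 1 footprint library and 2 RNA-seq libraries of SCC, and the Nanopore samples were not analysed here. Genes with joined names (204) or no CDS (3510) were left out. Footprint shares and ratios needed at least 10 CDS footprints, and TE needed RNA-seq above 1 RPKM in both libraries and a base mean above 25. The members and the gene lists were chosen with earlier results of these data known. With 1 footprint library and 1 condition no test was made, and correlations across genes are descriptions. Named genes were the 8 highest and 5 lowest by 5′UTR footprints per 100 CDS footprints (at least 10 on the 5′UTR and 100 on the CDS), the 5 highest and 5 lowest by TE (at least 100 CDS footprints), the 5 with most 5′UTR footprints, the 3 longest, the 3 nearest each limit on either side, and the members on the lists, of which 2 genes are not reported here. Mkks and Hnrnpf were named after their values were seen. Upstream AUGs came from GENCODE M21. Alternatives were other length, read and footprint limits, other pseudocounts, bins of RNA level and CDS length, leaving out each RNA-seq replicate, and scaling by edgeR 4.0.16 (TMM) or DESeq2 1.42.0 (size factors, on rounded counts) in R 4.3.3. Scripts in Python 3.11.15 with numpy 2.4.6, pandas 2.3.3, scipy 1.17.1 and matplotlib 3.10.9 were tested on simulated data.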

Additional observations from a re-analysis of the deposited data

How the results depend on the processing

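The long minus short difference in TE stayed negative under every alternative run, but moved. Scaling factors of a library shift TE of all genes alike and so do not bear on it. It was -0.71 and -0.98 with a 5′UTR limit of 300 and 600 nt, -0.64 with no RNA-seq minimum for short 5′UTRs, -0.75 with the minimum set per nt, -0.67 within RPKM bins, -0.42 within CDS length bins, -0.49 with at least 100 counts in every library and -0.78 where 80% or more of the annotated CDS was counted. Without either RNA-seq replicate it ranged from -0.84 to -0.80. The difference in log2 footprint density was 0.40 and 0.36 with limits of 300 and 600 nt, 0.37 with no RNA-seq minimum, 0.38 with a minimum per nt, 0.36 with 1 footprint added, 0.45 with at least 10 footprints on the 5′UTR and 0.40 without ribosomal protein and histone genes, but 0.036 within RPKM bins and 0.068 with at least 100 CDS footprints, and the cause was not tested. With 100 CDS footprints, 12.6% of long-5′UTR genes were denser on the 5′UTR and the median ratio was 11.5 per 100, which was 14.8 and 21.3 with limits of 300 and 600 nt. The rho of that ratio with TE was -0.250 at 600 nt, -0.082 with at least 100 CDS footprints, -0.131 with at least 100 counts, -0.243 over CDS RNA-seq, -0.226 without TE filters and -0.224 with 80% of the CDS. The rho of 5′UTR and CDS footprints per read was 0.319 and 0.347 at 300 and 600 nt, 0.224 with at least 100 CDS footprints and 0.338 with the replicates exchanged. A pair of restrictions, put on long-5′UTR genes alone, was chosen after seeing the data. Where the counted 5′UTR was no longer than the longest annotated, 27.6% of genes were denser, the ratio was 19.0, the density difference 0.65, the TE difference -0.89 and the rho of ratio with TE -0.217. Where every annotated coding transcript had 400 nt or more, these were 33.8%, 24.6, 0.87, -1.01 and -0.225, and the rho of footprints per read was 0.370. None of these values changed sign. No paired analysis was possible because the series holds counts for 1 condition, with 1 footprint library, and the further libraries of the study were not analysed here. Few footprints give single genes wide intervals. Requiring more CDS footprints selects on a part of TE and of the ratio itself. In genes whose transcripts differ in 5′UTR length, density per nt is an average over them. Footprints over the start codon and reads of overlapping genes may add to 5′UTR counts, and their part was not tested. Whether the profiled cells were given a drug before lysis, which can bear on 5′UTR footprints, is not given in the sources used here. RNA level and CDS length differ between long-5′UTR and short-5′UTR genes and were not matched together.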
